A study of Mus musculus with 10 samples.

Results

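The Toll-like receptors *Tlr1* to *Tlr9* and their co-receptor gene *Cd14* were examined in epididymal white adipose tissue (eWAT) of obese mice. The members were taken as the probes, control spots aside, whose gene name on the array is that of a member. This gave 10 genes of 34797 gene names on the array, or 14 of 55681 probes. The samples were 10 fat pads, each from a male adult mouse of the strain labelled C57BL/6J. The mice came to the facility on a low fat diet for 3 weeks and then received a high fat diet for 12 weeks, all at 29°C, which is thermoneutral for mice. All 10 then had daily injections of the iron-binding drug desferrioxamine (DFO) for 5 days, at a dose of 100 mg/kg body weight, and food was taken away 2 hours before the mice were killed on the following day. There was thus 1 treated group and no untreated group among these arrays, so the values describe how mice with the same treatment differed and not an effect of DFO. Mice are named by the replicate number in their labels.

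Toll-like receptors are membrane proteins that recognise parts of microbes and start inflammatory signalling. *Tlr1*, *Tlr2*, *Tlr4*, *Tlr5* and *Tlr6* code for receptors of the cell surface, and *Tlr3*, *Tlr7*, *Tlr8* and *Tlr9* for receptors of endosomes that bind nucleic acids. TLR2 pairs with TLR1 or TLR6 to bind lipoproteins, TLR4 binds lipopolysaccharide, which CD14 hands over to it, and TLR5 binds flagellin. TLR3 recognises double-stranded RNA, TLR7 and mouse TLR8 single-stranded RNA or its products, and TLR9 unmethylated CpG DNA. In adipose tissue, macrophages and other immune cells carry most of these receptors, and adipocytes express some of them too.

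RNA of each mouse was labelled with the dye Cy5 and hybridised on 1 array against a Cy3-labelled pool, which the labels describe as RNA of all mice of the wider study, controls included. The values below are log2 ratios of Cy5 over Cy3 on that array, so a difference of 1 between mice is a 2-fold difference. Where 0 lies depends on the centring. With median centring in place of loess, the mean over mice was 0.34 in place of -0.12 for *Tlr4*, 0.42 in place of -0.03 for *Tlr2*, 0.60 in place of 0.08 for *Tlr9* and 0.64 in place of 0.21 for *Tlr1*, so the values are read as differences between mice. The dyes were not swapped and the mean of a log ratio was not tested against 0. Median Cy5 signals of the arrays lay between 53.4 and 77.3 brightness units with a median background of 32 to 37, and mouse 3 had the fewest probes above background in Cy5 (24932, against 26620 to 30523).

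The probes are 60 bases long. Those of *Tlr1*, *Tlr2* and the brighter probe of *Tlr8* are shown as examples of probes with a frame without a stop over their whole length. Probes of *Tlr4*, *Tlr5* and *Tlr9*, among others, have such a frame too, and whether it is the coding frame was not analysed. *Tlr1* and *Tlr2* were also chosen as related receptors whose values differed in size. They are written 5′ to 3′, and capitals mark the longest run of bases that the probe has in common with a probe of another member.
Tlr1: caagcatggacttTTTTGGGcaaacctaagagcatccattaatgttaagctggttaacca
Tlr2: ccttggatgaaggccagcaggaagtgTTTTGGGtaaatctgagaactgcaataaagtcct
Tlr8 probe 1: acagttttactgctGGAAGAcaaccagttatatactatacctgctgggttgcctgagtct
On mouse build mm9 they lie on the minus strand, *Tlr1* at chr5:65316115-65316174, *Tlr2* at chr3:83640344-83640403 and *Tlr8* at chrX:163683356-163683415. No probe of a member had a run of more than 8 bases in common with a probe of another member. The *Tlr6* probe lies 28.2 kb from that of *Tlr1*, with no other gene between these neighbours in the RefSeq table, and the brightest *Tlr7* and *Tlr8* probes lie 59.4 kb apart on chromosome X, also with no gene between.

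All 10 genes were detected, by 12 of the 14 probes. A probe counted as expressed when it was well above background in both dyes on at least 5 arrays. Of the 12, 11 were so on all 10 arrays in both dyes, and the *Tlr5* probe was on 8 arrays in Cy5 and 7 in Cy3. The second *Tlr4* probe and the third *Tlr7* probe, which the array assigns to other transcripts of these genes, were not well above background on any array. No spot of a member was saturated. Among the expressed probes, Cy5 signals before normalization had medians over the mice between 82.2 (*Tlr5*) and 1882 (*Cd14*), but levels of different probes cannot be ranked on an array.

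The members as a list had a wide spread between mice. The median range over the 10 mice was 0.98 for the 12 expressed member probes, against 0.57 for all expressed probes. To set this against the error between arrays, the variances of log2 Cy5 and log2 Cy3 were compared (Pitman-Morgan test, adjusted over 25132 probes). Cy5 differs between mice, and Cy3 is the same pool on every array. Error from isolating the RNA of each fat pad is in Cy5 but not in Cy3, so the test cannot set it apart from differences between mice. Cy5 was the more variable for 11 of the 12 member probes, or 9 of the 10 genes, but also for 59.7% of all expressed probes. The ratio of the 2 SDs was largest for *Tlr6* (9.21), followed by *Tlr7* probe 2 (7.16), *Cd14* (6.67), *Tlr2* (6.42) and *Tlr1* (6.17). Only *Tlr3* did not pass the test among the members. For the slide, limma's moderated F test called 0% of probes and 0 of the 12 member probes. An unadjusted p under 0.05 was found for 1014 of all probes and 2 of the 12. On simulated data the test found only 3.5% of probes with slide differences of up to 3 SD to either side. It would thus miss even large differences between slides.

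**Figure D1:**
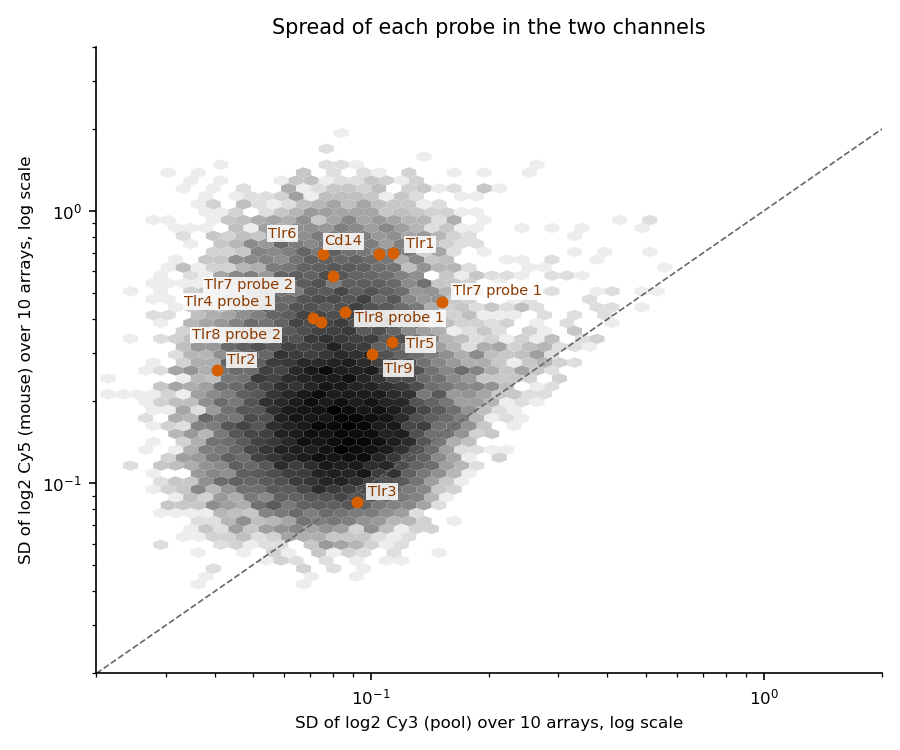
SD over the 10 arrays of each probe's log2 signal of the pool (Cy3, horizontal axis) and of the mice (Cy5, vertical axis), both on log scales, with all expressed probes as grey hexagons (darker for more probes), the 12 member probes as points and a dashed line of equal SD. *Tlr3* lies just below the line and the other 11 member probes lie above it.

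The largest structure among these fat pads also ran through the members. The first principal component of the other expressed probes held 76.2% of the variance between mice and set mice 4, 5, 6 and 7 apart from mice 1, 2, 3, 8, 9 and 10. Adipocyte markers moved with it. All 8 (*Adipoq*, *Plin1*, *Lep*, *Cfd*, *Cidec*, *Fabp4*, *Pparg* and *Lipe*) were above background on every array, but had their 4 lowest values in mice 4 to 7, where the mean of the list was between -2.41 and -1.35, against -0.15 to 0.65 in the other mice. Of 13 macrophage markers, 12 were expressed and 10 had their 4 highest values in mice 4 to 7, with list means of 0.52 to 0.81 there and -0.78 to 0.09 elsewhere. Endothelial markers (5 of 6), T cell markers (4 of 5) and red blood cell markers (3 of 3) had their 4 lowest values in mice 4 to 7. In such bulk samples, fewer cells of a type and less RNA per cell cannot be told apart.

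Of the members, 6 genes (8 probes) had their 4 highest values in mice 4 to 7, namely *Cd14*, *Tlr1*, *Tlr4*, *Tlr6*, *Tlr7* and *Tlr8*. This order was found for 19.2% of all expressed probes with a value on every array. The opposite order, with mice 4 to 7 lowest, was found for *Tlr5* and *Tlr9* and for 23.2% of all probes. *Tlr2* and *Tlr3* had neither order, although in the scanner's log ratio and in the deposited normalized values *Tlr2* was highest in mice 4 to 7. With median centring in place of loess, the order was lost for *Tlr9* and the brighter *Tlr7* probe, and 17.4% and 7.01% of all probes had mice 4 to 7 highest and lowest. No member turned its order under any setting. The part of macrophage number in these orders was not tested.

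**Figure D2:**
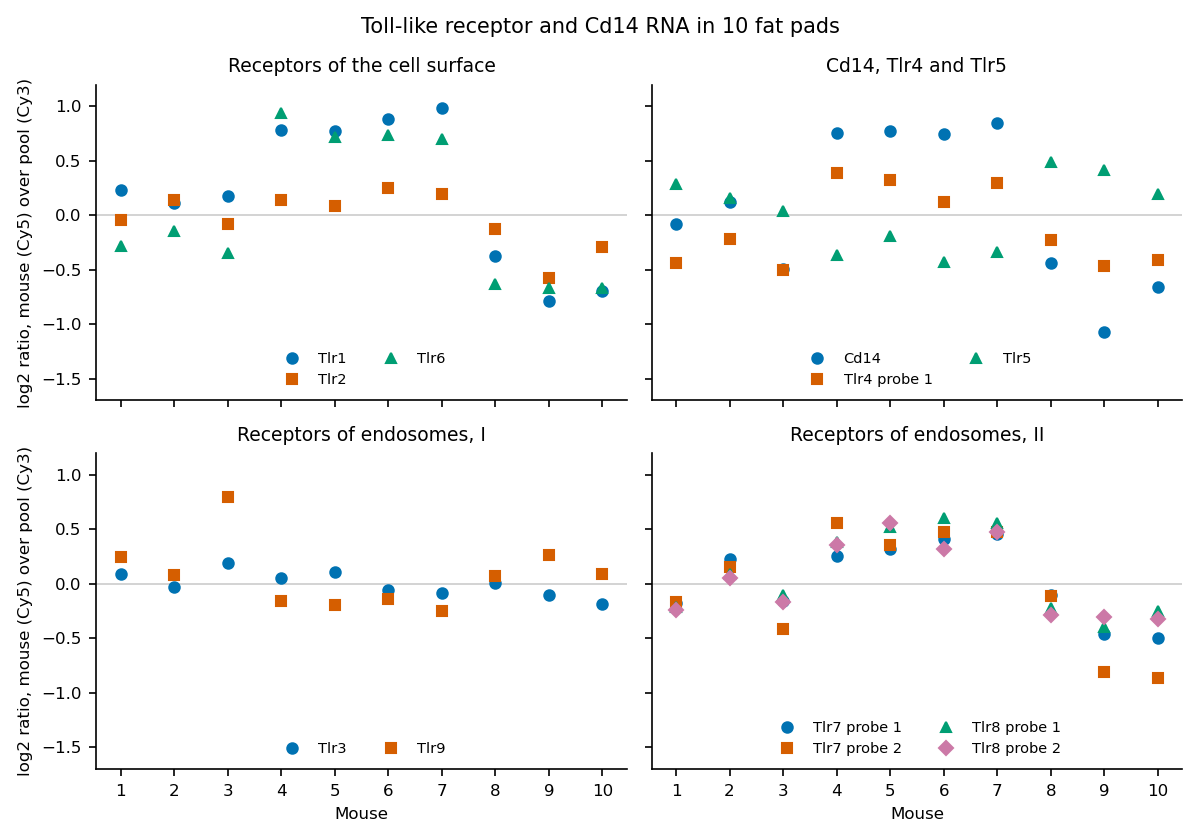
Log2 ratio of mouse over pool (vertical axis) for each of the 10 mice (horizontal axis), 1 array per mouse, with 1 symbol for each expressed member probe and a grey line at the level of the pool. *Cd14*, *Tlr1*, *Tlr4*, *Tlr6*, *Tlr7* and *Tlr8* are highest in mice 4 to 7, *Tlr5* and *Tlr9* are lowest there, and mouse 3 stands above the others for *Tlr9*.

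In the loess-normalized values *Cd14* had the widest range of the members. In the scanner's own log ratio those of *Tlr1*, *Tlr5*, *Tlr6* and *Tlr8* were wider, and in the deposited normalized values that of *Tlr1* (2.12, against 2.05). The log2 ratio of *Cd14* was lowest in mouse 9 (-1.08) and highest in mouse 7 (0.84), with a median of 0.02. The values of mice 4 to 7 lay close together, between 0.75 and 0.84, while the other 6 mice spread from -1.08 to 0.13. The range is a 3.78-fold difference, and only 4.54% of all expressed probes had a wider one. The SD was 0.70 for Cy5 and 0.10 for Cy3 (adjusted p = 9.3e-05). The gene with the most similar values over the 10 mice, measured as the root mean square difference of the centred log2 ratios among 12680 genes, was *Lrrc25* (0.10), followed by *Col1a1* (0.11) and *Gpsm3* (0.12). The ratios were not scaled, so this measure takes in the size of the differences as well as their pattern.

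Among the receptors of lipoproteins, *Tlr1* and *Tlr6* had the same order of mice 4 to 7 as *Cd14*. *Tlr1* had its lowest log2 ratio in mouse 9 (-0.79), a median of 0.21 and its highest value in mouse 7 (0.99). In mice 4 to 7 it lay between 0.77 and 0.99, and the highest of the other mice was mouse 1 at 0.23. The SD was 0.70 for Cy5 and 0.11 for Cy3 (adjusted p = 7.0e-05).

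For *Tlr6* the lowest value was -0.67 (mouse 9), the median -0.22 and the highest value 0.94 (mouse 4). All of mice 4 to 7 were at 0.70 or above and the other mice at -0.15 or below, so the values fell far apart. The SD of *Tlr6* was 0.69 for Cy5 and 0.08 for Cy3 (adjusted p = 6.2e-06).

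*Tlr2*, whose product is the partner of both, varied less. Its log2 ratio had a low of -0.58 in mouse 9, a median of 0.02 and a high of 0.25 in mouse 6. Mouse 2 (0.14) lay among mice 4 to 7 (0.08 to 0.25), so the sets overlapped. *Tlr2* is on each array with 10 spots, whose log2 ratios had a median SD of 0.08 within an array, against an SD of 0.25 between mice. Of its 100 spots, 11 were marked as uneven or as outliers and left out. The SD of log2 Cy5 was 0.26 and that of log2 Cy3 0.04 (adjusted p = 1.0e-04), but this call was lost with median centring instead of loess (adjusted p = 0.068) and without normalization between arrays (0.24). The genes closest to *Tlr1* were *Ms4a6c* (root mean square difference 0.09), *Nrcam* (0.11) and the complement gene *C1qb* (0.12). By this measure *Cd14* ranked 94, *Tlr6* 172 and *Tlr2* 1405 of 12680 genes in likeness to *Tlr1*. The narrower range of *Tlr2* (0.83, against 1.78 for *Tlr1*) enters this rank, so it does not say that the pattern differed. The genes closest to *Tlr6* were *2310004N24Rik* (0.08), *Creb3l3* (0.08) and *Pfkfb4* (0.09).

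*Tlr4*, the lipopolysaccharide receptor, ranged from -0.50 in mouse 3 to 0.39 in mouse 4, with a median of -0.22. Again mice 4 to 7, between 0.12 and 0.39, lay above all other mice, which were at -0.22 or below. Its 2 spots differed little within an array (median SD 0.04, against 0.36 between mice). The SD was 0.40 for Cy5 and 0.07 for Cy3 (adjusted p = 4.8e-05).

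*Tlr5*, the flagellin receptor, ran the other way. The lowest log2 ratio was -0.43 in mouse 6, the median 0.10 and the highest 0.49 in mouse 8. Here mice 4 to 7 lay at -0.19 or below and the others at 0.04 or above. Cy5 was not well above background in mice 4 and 7, nor Cy3 in mice 1, 2 and 8, so these ratios are uncertain. The SD was 0.33 for Cy5 and 0.11 for Cy3 (adjusted p = 0.013). Of the expressed member probes this was the closest to background, and the call was lost with the slide as a block (adjusted p = 0.091).

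Among the endosomal receptors, *Tlr7* and *Tlr8* were each measured by 2 expressed probes, and the probes of a gene gave the same order of the sets. The brighter *Tlr7* probe was lowest in mouse 10 (-0.50), had a median of 0.06 and was highest in mouse 7 (0.45). The other ranged from -0.86 in mouse 10 to 0.56 in mouse 4, around a median of 0.02. Both had mice 4 to 7 highest, and the largest difference between the probes in a mouse was 0.36, in mouse 10. The adjusted p was 6.0e-04 for the brighter *Tlr7* probe and 1.3e-05 for the other.

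The brighter *Tlr8* probe, shown above, ranged from -0.40 in mouse 9 to 0.60 in mouse 6 around a median of -0.01. The other *Tlr8* probe had a low of -0.32 in mouse 10, a median of -0.05 and a high of 0.56 in mouse 5. On both, mice 4 to 7 were at 0.32 or above and the other mice at 0.09 or below. The adjusted p was 2.0e-04 and 1.3e-04. These probes are dim, and in the scanner's own log ratio, which has no added offset, their ranges were 2.31 and 1.99 in place of 1.00 and 0.88. The range of *Tlr5* was 2.88 there in place of 0.92. That ratio differs in background, offset and dye normalization at once, and without background subtraction alone the 3 ranges were 1.11, 1.05 and 1.01, so which step widens them was not tested. For *Tlr8*, 1173 genes lay within a root mean square difference of 0.2, the closest being *Phf23* (0.06), *Hgsnat* (0.06) and *Dnmt1* (0.07).

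*Tlr3* had the narrowest range of the members. Its log2 ratio lay between -0.18 in mouse 10 and 0.19 in mouse 3, with a median of -0.01. Those of mice 4 to 7 (-0.09 to 0.11) fell within the values of the other mice. The range of 0.38 was 0.61 in the scanner's log ratio and 0.79 in the deposited normalized values. The SD was 0.09 in both dyes, and the variances did not pass the test (adjusted p = 0.86).

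*Tlr9* differed from its endosomal relatives. The lowest log2 ratio was -0.25 in mouse 7, the median 0.08 and the highest 0.79 in mouse 3. The next highest mouse was mouse 9 at 0.26, and mice 4 to 7 were all at -0.13 or below. Before normalization the Cy5 signal of *Tlr9* in mouse 3 was 1227, near the lowest of the mice (1224 to 2375). The array of mouse 3 had the lowest median Cy5 signal (53.4), so its high ratio rests on the scaling of a dim array. The SD was 0.30 for Cy5 and 0.10 for Cy3 (adjusted p = 0.012), a call that was lost with median centring (adjusted p = 0.50) and without normalization between arrays (0.88). The mean of the T cell list was also highest in mouse 3 (0.63), with the highest values of *Cd3e* (0.79), *Cd3d* (0.78) and *Lck* (0.75), while *Cd3g* and *Cd2* were highest in mice 9 and 10. Of 5 expressed dendritic cell markers 1 was highest in mouse 3, *Siglech* (0.18), against 3 in mouse 1 and 1 in mouse 2. None of the 3 expressed B cell genes was highest in mouse 3, where *Cd79a* was at -0.27, *Ms4a1* at -0.23 and *Cd79b* at 0.31. The part of these cells in the *Tlr9* value was not tested. The genes closest to *Tlr9* were *2310002F09Rik* (0.10), *Rdh12* (0.10) and *Rhobtb1* (0.11), and *Cd14* ranked 12295 of 12680.

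The upstream 250 bases of a *Tlr1* and of the *Tlr9* transcript start are shown because they held a match to a motif described below. These genes also had opposite orders of the mice. They were read from RefSeq promoter windows (GRCm38.p6), which hold 7 of the 10 members. Both strands were searched for GAGGAAGT, bound by the myeloid factor PU.1 and other ETS factors, and for TGANTCA, bound by AP-1, which reads alike on both strands. Capitals mark a match.
Tlr1, chr5:64933559-64933808, minus strand: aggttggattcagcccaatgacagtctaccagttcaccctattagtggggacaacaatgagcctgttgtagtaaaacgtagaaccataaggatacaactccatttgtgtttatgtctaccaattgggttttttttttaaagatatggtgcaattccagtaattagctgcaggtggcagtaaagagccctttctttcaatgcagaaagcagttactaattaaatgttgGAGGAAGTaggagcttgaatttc
Tlr9, chr9:106222348-106222597, plus strand: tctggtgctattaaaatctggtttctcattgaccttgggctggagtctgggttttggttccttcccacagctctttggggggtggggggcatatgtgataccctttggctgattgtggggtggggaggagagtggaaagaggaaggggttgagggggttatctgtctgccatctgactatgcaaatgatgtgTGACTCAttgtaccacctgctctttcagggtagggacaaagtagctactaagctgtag
Of the 9 member windows, GAGGAAGT was found in 1, this *Tlr1* window, and TGANTCA in 1, that of *Tlr9*. The other *Tlr1* window and those of *Tlr2*, *Tlr3*, *Tlr5*, *Tlr6* and *Tlr8* held neither, so the matches did not follow the order of the mice. Of all 32851 windows, 2.44% held GAGGAAGT and 6.75% TGANTCA. A match describes the letters of the window only.

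Relations between members were measured within mice 1, 2, 3, 8, 9 and 10. A correlation over all 10 would mainly give the gap to mice 4 to 7. These 6 mice also fell apart for some measures. Macrophage list means were -0.17 to 0.09 in mice 1, 2 and 3 (slides 1 and 2). They were -0.78 to -0.48 in mice 8, 9 and 10 (slides 4 and 5). *Tlr6* lay at -0.35 to -0.15 and at -0.67 to -0.63. The part of this further gap and of the slides in the correlations was not tested. Of 20 pairs, 5 passed (exact permutation test on Pearson's r over 6 mice, two-sided, adjusted over the pairs). *Tlr2* and *Cd14* had an r of 0.96 and a rho of 0.94 (exact permutation p = 0.0042 and 0.017, adjusted p = 0.028 and 0.067). *Tlr1* and *Tlr2* had an r of 0.86 and a rho of 0.83 (exact permutation p = 0.0069 and 0.058, adjusted p = 0.033 and 0.15). Without the 2 mice farthest from the median of the first gene, r was 0.80 for *Tlr2* and *Cd14*. For *Tlr1* and *Tlr2* it dropped to 0.45 without mice 9 and 10, so this relation rests on these mice, which share slide 5. With median centring r of *Tlr1* and *Tlr2* was 0.68 (adjusted p = 0.20, exact permutation test), and the call was lost. *Tlr2* and *Tlr6* had an r of 0.83 and a rho of 1.00 (exact permutation p = 0.024 and 0.0028, adjusted p = 0.052 and 0.028). Their r was 0.83 without the 2 farthest mice, and the pair passed with the scanner's log ratio (0.85, adjusted p = 0.022, exact permutation test). *Tlr1* and its neighbour *Tlr6* had an r of 0.91 (adjusted p = 0.10, exact permutation test).

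The other 3 pairs joined a member to the mean of the 12 macrophage markers. For *Tlr2* r was 0.94 and rho 0.94 (exact permutation p = 0.0028 and 0.017, adjusted p = 0.028 and 0.067). For *Tlr6* they were 0.96 and 0.94 (exact permutation p = 0.0083 and 0.017, adjusted p = 0.033 and 0.067), and for *Tlr8* 0.92 and 1.00 (exact permutation p = 0.0042 and 0.0028, adjusted p = 0.028 and 0.028). Without the 2 farthest mice, r was 0.91, 0.93 and 0.78, with mice 3, 8, 9 and 10 left for *Tlr6*. With median centring, r was 0.72 for *Tlr8* and the markers (adjusted p = 0.18, exact permutation test). For rho, a p of 0.0028 is the smallest that 6 mice can give.

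*Cd14*, *Tlr1* and *Tlr7* had an r of 0.90, 0.94 and 0.88 with the markers and did not pass (adjusted p = 0.051, 0.052 and 0.052, exact permutation test). With median centring *Cd14* (r = 0.98, adjusted p = 0.019, exact permutation test) and *Tlr7* (0.94, adjusted p = 0.042) passed, and *Cd14* also with the scanner's log ratio (0.93, adjusted p = 0.022). *Tlr4* (r = 0.30), *Tlr9* (0.22), *Tlr3* (0.63) and *Tlr5* (-0.58) did not pass either. *Tlr4* did not pass with *Cd14* (r = 0.53) or with *Ly96* (r = 0.51), which codes for its partner MD-2 (adjusted p = 0.35 for both, exact permutation test). The value for *Tlr4* and *Ly96* depended on the processing, as r was 0.99 with median centring (adjusted p = 0.022, exact permutation test), 0.22 with the scanner's log ratio and -0.67 without the 2 farthest mice. *Tlr7* and its neighbour *Tlr8* had an r of 0.88 (adjusted p = 0.067, exact permutation test). These genes share an array in each mouse, and none of these values was compared with that of another pair.

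**Figure D3:**
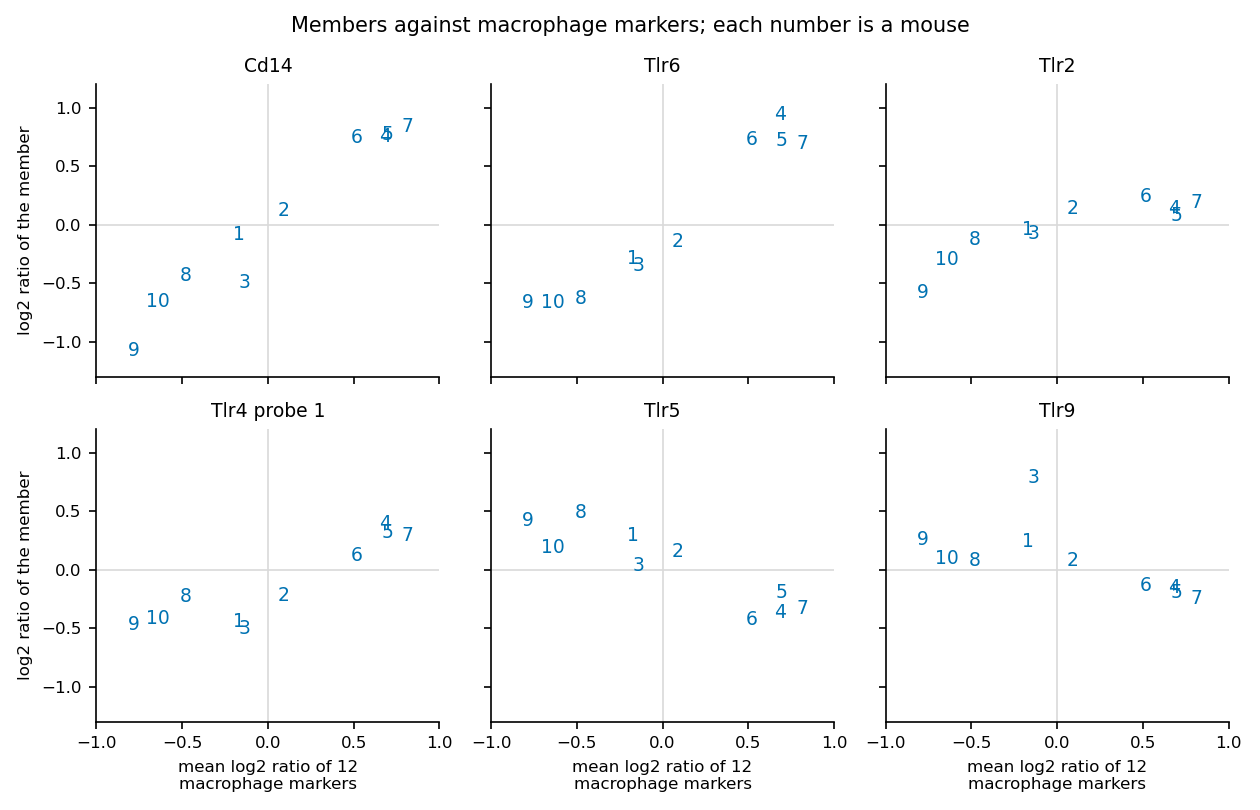
Log2 ratio of 6 members (vertical axis) against the mean log2 ratio of the 12 expressed macrophage markers (horizontal axis), where each number is the mouse it stands for. Mice 4 to 7 lie at the right in all panels, high for *Cd14*, *Tlr6* and *Tlr4* and low for *Tlr5* and *Tlr9*, and among the other mice *Tlr6* and *Tlr2* go up with the markers (r = 0.96 and 0.94).

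Other genes of the pathway were described in the same way. Of 53 genes on the array, 45 were expressed, 37 of these (82.2%, against 59.7% of all probes) passed the variance test with Cy5 the more variable and 0 with Cy3 so (41 of all probes). The median range was 0.69, against 0.57 over all expressed probes. The counts by role given below are to be read against the same 59.7%. The 4 highest values lay in mice 4 to 7 for 16 of the 45 genes (35.6%, against 19.2% of all probes) and the 4 lowest for 10 (22.2%, against 23.2%, close to the background). With median centring these counts were 15 and 1, and the low orders given below for *Lbp*, *Tab3*, *Traf6*, *Irak2*, *Sigirr*, *Nfkbia*, *Cxcl10* and *Nos2* were lost. They were kept in the scanner's log ratio, and in the deposited values by all of them but *Irak2* and *Nfkbia*. No gene turned its order.

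Of the other mouse Toll-like receptors, *Tlr13*, a sensor of bacterial ribosomal RNA, lay between 1.10 and 1.48 in mice 4 to 7 and between -1.85 and -0.03 in the others, with the lowest value in mouse 9 (adjusted p = 2.0e-06). *Tlr12*, a receptor of parasite profilin, was at 1.90 in mouse 2 and between -1.12 and -0.49 in the other 9 mice (adjusted p = 4.8e-07). Its probe was well above background on 8 arrays in Cy5 and 10 in Cy3, so some of its ratios are uncertain. *Tlr11* was above background in both dyes on too few arrays to be tested.

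Of the co-receptors, 5 of 5 passed the test. *Ly96* (0.46 to 0.72), *Cd180* (0.61 to 0.90) and *Ly86* (0.21 to 0.78), which codes for the partner of CD180, were highest in mice 4 to 7, as was the scavenger receptor gene *Cd36* (0.03 to 0.15). *Lbp*, which codes for the serum protein that brings lipopolysaccharide to CD14, was lowest there (-1.19 to -0.54, against -0.25 to 0.38 in the other mice, adjusted p = 5.9e-07).

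Of 4 chaperones, 3 passed. *Unc93b1*, which carries the receptors to endosomes, lay between 0.37 and 0.62 in mice 4 to 7 and between -0.46 and 0.29 in the others. The adaptor genes *Myd88* (0.23 to 0.33 in mice 4 to 7, -0.20 to 0.22 in the others) and *Ticam1*, coding for TRIF (0.35 to 0.52 and -0.51 to -0.01), passed, while *Tirap* did not (adjusted p = 0.20). *Ticam2* and *Sarm1* were not expressed above background on enough arrays.

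Of 15 kinase and ubiquitin ligase genes, 12 passed, in mixed directions. *Irak4*, *Tbk1* and *Ikbke* were highest in mice 4 to 7 (0.46 to 0.58, 0.29 to 0.48 and 0.24 to 0.73), and *Tab3* (-1.06 to -0.75), *Traf6* (-0.34 to -0.25) and *Irak2* (-0.51 to -0.22) were lowest there. The order of *Ikbke* was lost in the deposited normalized values. Among 5 transcription factors, 4 passed. *Irf5*, which acts downstream of MYD88 in macrophages, had the widest range of them, from -0.89 in mouse 9 to 0.97 in mouse 7, while *Nfkb1* did not pass (adjusted p = 1.0).

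Inhibitors of the pathway passed in 4 of 6 cases, near the 59.7% of all expressed probes. *Sigirr* (-0.76 to -0.38 in mice 4 to 7, against 0.16 to 0.48) and *Nfkbia* (-0.46 to -0.35, against -0.17 to 0.22) were lowest in mice 4 to 7 and *Tollip* (0.20 to 0.30, against -0.08 to 0.17) highest. Of 10 target genes, 5 were expressed and all 5 passed, but they did not run together. *Tnf* was highest in mice 4 to 7 (0.48 to 0.56, against -0.50 to 0.08), *Cxcl10* (-0.91 to -0.26) and the nitric oxide synthase gene *Nos2* (-0.68 to -0.38) were lowest there, and *Ccl2* had neither order. *Il1b* was highest in mouse 8 (0.68), where the neutrophil gene *S100a9* was also highest (2.25, against -0.40 or less in the other mice). Of the 4 expressed neutrophil markers *Retnlg* was highest there too (0.85), but *S100a8* was highest in mouse 2 (0.90, against 0.08 in mouse 8) and *Ly6g* in mouse 1 (0.41, against 0.27). *Il6*, *Il12b*, *Cxcl2*, *Ifnb1* and *Ptgs2* were not above background in both dyes on enough arrays to be tested. For *Il6* and *Cxcl2* only the pool fell short, as each was above background on 5 arrays in Cy5 and 2 in Cy3.

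**Figure D4:**
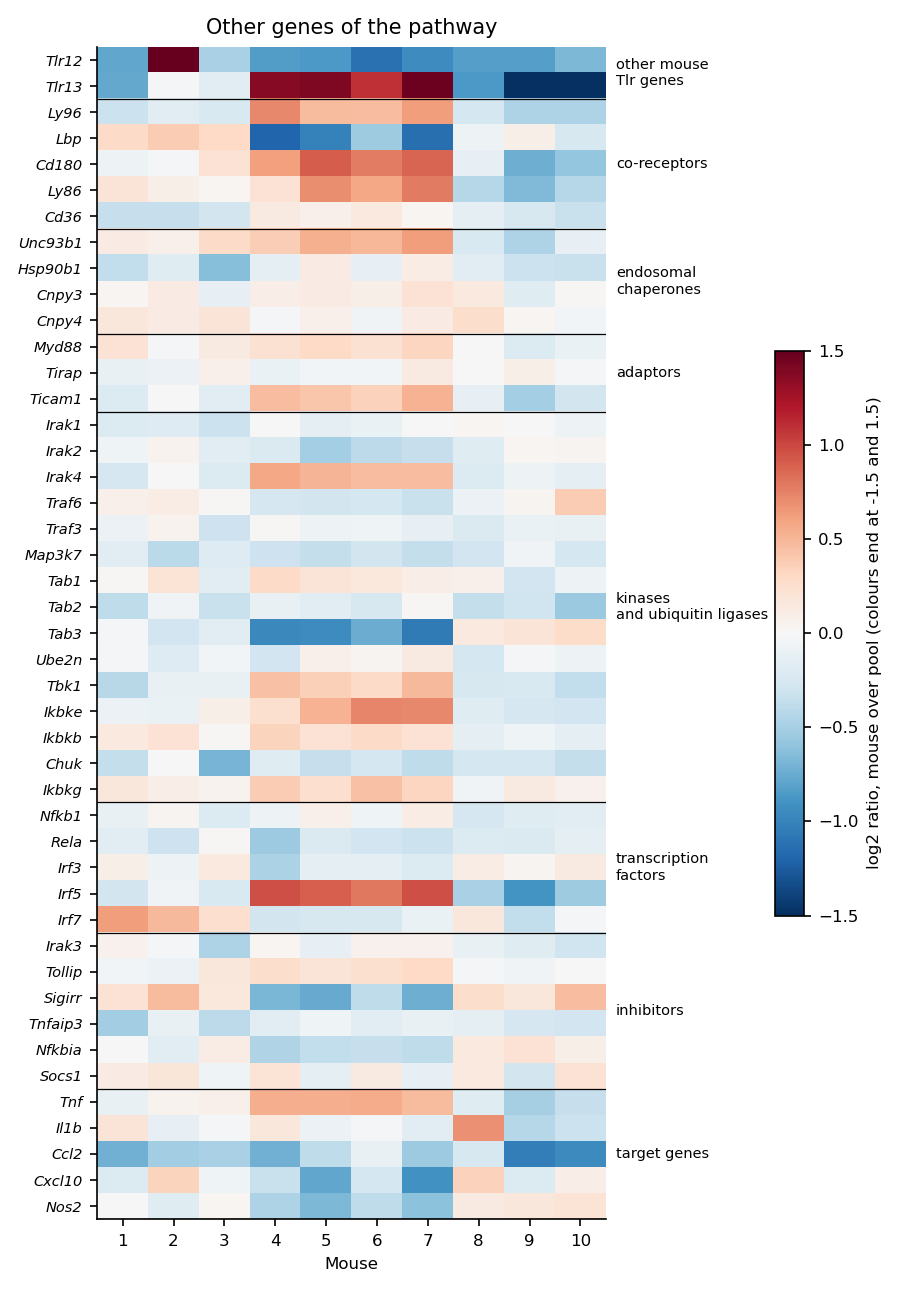
Log2 ratio of mouse over pool for the 45 expressed pathway genes (rows, grouped by role) in the 10 mice (columns), red for above and blue for below the pool. Mice 4 to 7 show red for *Tlr13*, *Ly96*, *Cd180*, *Irf5* and *Tnf* and blue for *Lbp*, *Tab3* and *Sigirr*, and mouse 2 is the only mouse that is red for *Tlr12* (1.90).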

How the data were processed

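RNA of 10 eWAT samples of 1 group was measured on 10 two-colour arrays, placed in pairs on 5 slides. The authors deposited scanner output of Agilent Feature Extraction 10.7.3.1. Its intensity values are the brightness of each spot and its local background, not normalized, and its log10 ratio of Cy5 over Cy3 had been background-subtracted and dye-normalized by that software. The deposited table of normalized log2 values (30733 spots) followed log2 Cy5 (r between 0.993 and 0.999), with a median of 8.52 in every column. How it was centred is not given in the sources used here, so only differences between mice were taken from it.

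Mean signals were corrected with normexp (offset 50) and median background and normalized by loess (log2 ratio) and Aquantile (channel values) with limma 3.58.1 in R 4.3.3. Spots marked as outliers and control spots were left out, and spots of a probe were averaged. A probe with several spots was above background where most of them were. The remaining steps ran in Python 3.11.15. Tests were the Pitman-Morgan test, limma's moderated F test for the slide and exact permutation tests, adjusted by Benjamini-Hochberg and read at a threshold of 0.05. A gene with several probes was represented by the one with the highest mean Cy5 signal. The genes to be named were the members, the pathway and marker genes, and the 3 most similar genes of each member with a range of at least 1. Names are those of the array, and 22290 of 34797 were found in RefSeq. Probe positions are those of the array (mm9), and the exon each probe lies in was not analysed here.

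On simulated data for 25132 probes, the variance test recovered 71.5% of 200 probes with a 5 times larger Cy5 SD. The slide test recovered 100% of 200 probes with differences between slides of up to 12 SD to either side. It recovered only 3.5% of those with up to 3 SD, so it says little about any but very large differences. The number of arrays limits the precision. The members and lists were chosen with earlier results of these data known.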

Additional observations from a re-analysis of the deposited data

Results flagged for a closer look

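A mouse far from the other 9 was looked for among the 12 expressed member probes and the 45 expressed pathway genes, as a gap to the nearest mouse, as a share of the whole range, above Dixon's critical value for 10 samples. Of these 57, 2 (3.51%) had such a gap, and chance flags about 1 in 20. *Tlr9* was far higher in mouse 3 (0.79) than in the other mice (-0.25 to 0.26), with a gap of 0.511 of the range. In the scanner's log ratio the gap was 0.491, with 0.61 in mouse 3 against -0.31 to 0.16. That ratio is dye-normalized too. Before normalization the Cy5 signal of mouse 3 was 1227, near the lowest of the mice (1224 to 2375), on the array with the lowest median Cy5 signal. The part of this scaling in the gap was not tested.

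*Tlr12* had a gap of 0.791 of the range, with 1.90 in mouse 2 against -1.12 to -0.49. In the scanner's log ratio it was 0.624, with 2.48 against -3.55 to -1.28. The *Tlr12* probe was above background in Cy5 on 8 arrays, so the low end of these ranges is uncertain. Mouse 2 was also highest for the sperm genes *Prm1* (-1.37, against -4.11 to -2.93) and *Prm2* (-0.79, against -2.26 to -1.93), while the epididymis genes *Crisp1* and *Lcn5* were above background on 0 arrays in Cy5. In Cy3, the pool, *Crisp1* was above background on 10 arrays and *Lcn5* on 0. The part of tissue next to the fat pad in the *Tlr12* value was not tested.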

How the results depend on the processing

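The number of probes with Cy5 more variable than Cy3 (15009) was 4706 without normalization between arrays, and 9 of the 12 member probes passed then. It lay between 10119 and 15381 under the other alternatives, with 9 to 11 member probes. No slide call was made under any alternative. The direction of the *Tlr3* variances (log2 ratio of the SDs) turned without background subtraction (0.24), with median centring (0.44) and with the slide as a block (1.23), and that of *Tlr9* turned without normalization between arrays (-0.12), with no call in any of them. Of the 20 pairs, 4 to 7 passed under other settings. Without the 2 farthest mice 0 passed, but 4 mice leave few permutations. For rho, 4 mice cannot give a p below 0.083. r changed sign for *Tlr7* and *Tlr9* (0.35 with median centring, 0.089 with the scanner's log ratio, 0.079 without the 2 farthest mice), *Tlr3* and *Unc93b1* (-0.097 with median centring), *Tlr5* and the macrophage list (0.066 with median centring), *Tlr4* and *Ly96* (-0.67 without the 2 farthest mice) and *Tlr4* and the macrophage list (-0.36 without them), and none of these passed in the values reported or where the sign changed, although *Tlr4* and *Ly96* passed with median centring (0.99). The cause was not tested. Pairs over all 10 mice were not run, because each had a measure that fell into separate clusters. Under settings chosen after seeing the data, mice 4 to 7 were highest for 7 to 9 of the 12 member probes and lowest for 1 to 2, and for 15 to 20 and 1 to 9 of the 45 pathway genes. No paired analysis was possible because there is 1 group. Signals of *Tlr3*, *Tlr5*, *Tlr8* and *Tlr12* near background limit their ratios.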

Other observations

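Mice 8, 9 and 10 had the lowest *Tlr1* and *Tlr6* values, and the lowest macrophage list means (-0.78 to -0.48), of all mice. *Cd163*, another macrophage marker, was above background on 7 arrays in Cy5 and 3 in Cy3 and so was not in the list mean. Of 9 neutrophil markers 4 were expressed, of 5 B cell markers 3, of 6 dendritic cell markers 5 and of 5 mesothelium markers 5, and mice 4 to 7 had the 4 lowest values of 0, 1, 1 and 2 of them. *Pax5* and *Xcr1*, which define B cells and a class of dendritic cells, were not above background on any array.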
